A study of Mus musculus with 12 samples.

Results

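The genes described here are 8 markers of tumor-associated macrophages on an nCounter immune panel, measured in transplanted mouse breast tumors after 3 days of olaparib, ADU-S100 or both. They were taken by symbol from a table of 750 genes, and all 8 were present. The ligand Csf1, its receptor Csf1r, and Cd68, Msr1 and Marco are treated as general macrophage genes, and Mrc1, Cd163 and Chil3 as genes of alternative activation. The rule used no measured value. Neither division nor name restricts a gene to macrophages, since Csf1 is made by many cells, Mrc1 is also found on endothelium, and Chil3 is also made by other myeloid cells.

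The tumors were of the K14-Cre;Brca f/f Trp53 f/f model of triple negative breast cancer, in which Cre under the keratin 14 promoter deletes the tumor suppressors Brca1 and Trp53 in epithelium, and they grew in the mammary fat pads of syngeneic FVB/129P2 females. Treatment began at a volume of 150 to 300 mm3. Vehicle mice (tumors 1269, 1529 and 1536) received diluted DMSO by the intraperitoneal route and saline into the tumor. ADU-S100 mice (1506, 1512 and 1513) received DMSO by that route and, once on the first day, 50 μg of the drug in 40 μl into the tumor. Olaparib mice (1510, 1517 and 1521) received 50 mg/kg daily and intratumoral saline, and combination mice (1251, 1270 and 1539) received both drugs. Olaparib is an inhibitor of the DNA repair enzyme PARP, while ADU-S100 activates STING, an adaptor of cytosolic DNA sensing that drives type I interferon production, and belongs to the cyclic dinucleotides. All 12 tumors thus carried the same engineered deletions, all were transplants rather than tumors that arose in place, and the ages of the mice are not given in the sources used here. RNA came from frozen pieces of whole tumor, so fewer macrophages and less RNA per macrophage cannot be told apart.

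Monocytes that enter a tumor become macrophages under the control of CSF1, which signals through the CSF1 receptor for their survival and differentiation. Interleukin 4 and interleukin 13, acting through STAT6, drive a state called alternative activation, which is marked in the mouse by the mannose receptor and the chitinase-like protein Chil3. Interferon and microbial products drive the opposing classical state. Tumor-associated macrophages often carry features of both, and in many tumors they restrain T cells.

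The deposited values are normalized counts, that is, hybridized probe counts multiplied by one scaling factor per tumor. Totals of recovered counts ran from 106206 to 1519471, with the lowest total in olaparib tumor 1517, whose scaling factor of 10.5 was also the highest. Counts were therefore least precise in that tumor, and fewer than 20 were recovered for Marco, Chil3 and Msr1 in at least 1 tumor. All 8 genes passed the filter on low values, as did 689 genes in all. Marco lay over the level of the lowest genes of the panel in 10 of 12 tumors and reached 20 normalized counts in 4, and the other 7 lay over that level in every tumor. The macrophage identity of the signal could be checked on 9 of 10 fixed macrophage markers, 6 of which are members. Emr1, the older symbol of the gene for F4/80, was present at 134 to 503 normalized counts in the 12 tumors.

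No macrophage gene differed between treatment groups beyond the spread of the tumors by limma's test with adjustment over all genes. At an adjusted p below 0.05 the fit called 0 of 8 members and 0% of the 689 genes in each of the 8 comparisons. At an unadjusted p below 0.05 it counted 0 of 8 members against 7.69% of genes for the combination versus vehicle, 0 against 4.79% for ADU-S100 versus vehicle, 0 against 7.26% for olaparib versus vehicle, 0 against 9.14% for the combination versus ADU-S100, and 1 (Marco) against 7.26% for the combination versus olaparib. Among the factorial contrasts, 0 of 8 members passed the unadjusted p against 3.05% of genes for ADU-S100 given versus not given, 7.55% for olaparib given versus not given, and 10.9% for the interaction, that is, how much the ADU-S100 effect changed when olaparib was also given. With 8 members, counts of 0 or 1 were near the panel's share, and the edgeR test on recovered counts also called 0 of 8.

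The tumors of 2 compared groups did not overlap for few members. The values did not overlap for 0 of 8 members in the combination versus vehicle, where 20% of all genes were separated, for 0 in ADU-S100 versus vehicle, where 14.9% were, and for 0 in olaparib versus vehicle, where 4.79% were. Against ADU-S100, Csf1 lay above and Mrc1 below in all 3 combination tumors, where 31.3% of all genes were separated. Against olaparib, Csf1 lay above and Marco below, where 12.8% were.

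**Figure D1:**
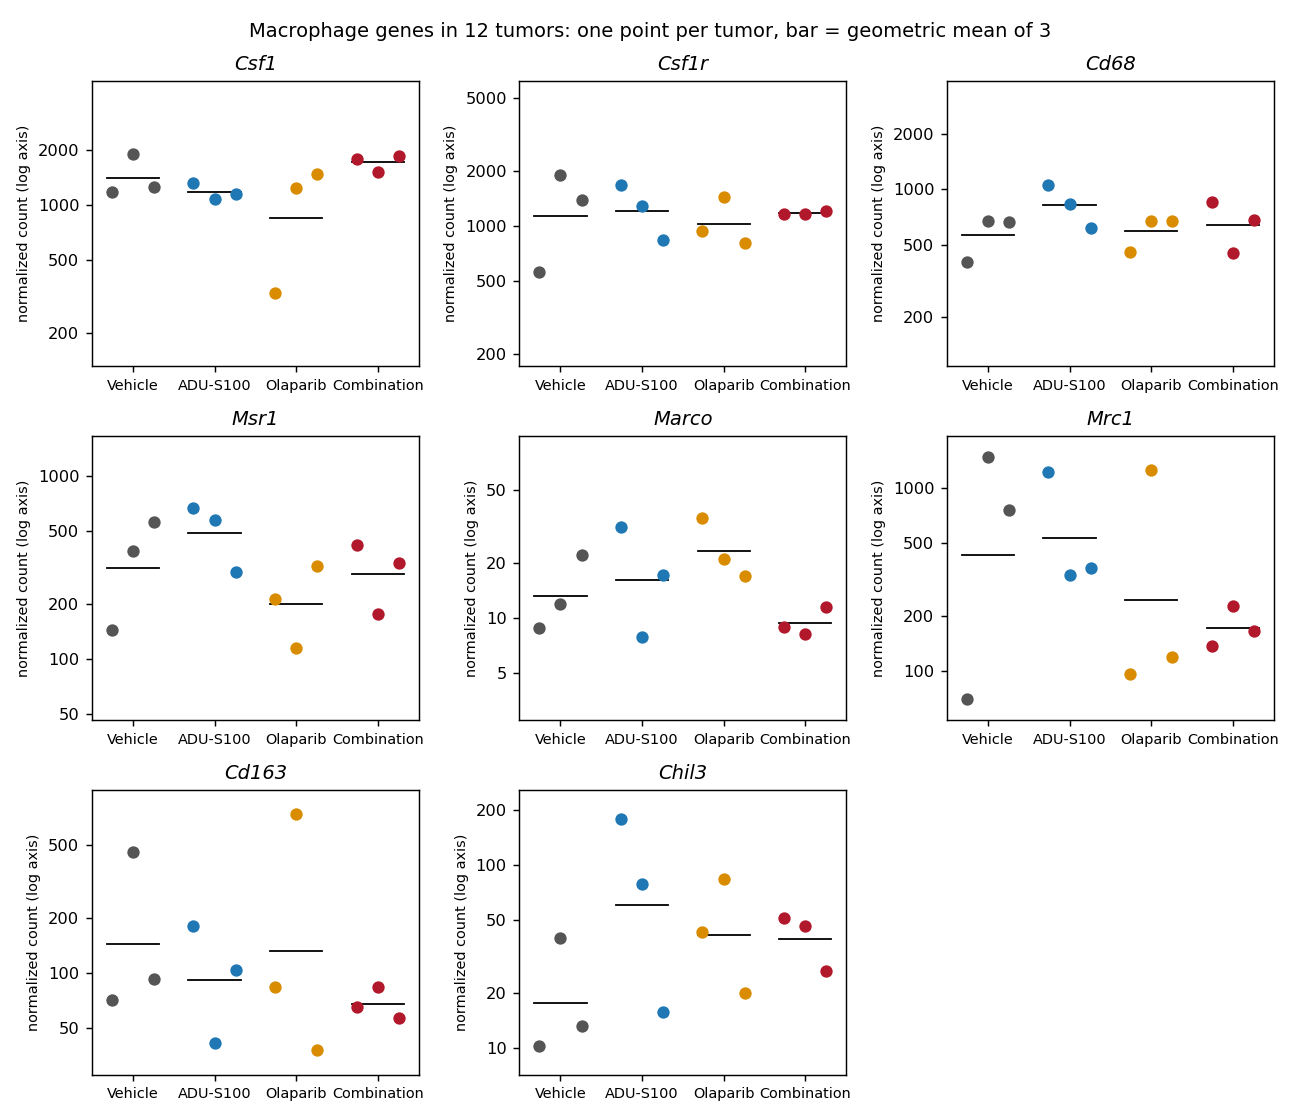
Normalized counts of the 8 macrophage genes on log axes, with the 4 treatment groups along the horizontal axis, a point for each of 12 tumors and a bar at the geometric mean of 3. Each panel spans the same number of log units, so that Mrc1, Cd163 and Chil3 are seen to spread most and Cd68 and Csf1r least, and the groups overlap in most panels.

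The ligand Csf1 had its highest group mean in the combination as deposited, but the step from vehicle depended on the scaling. Csf1 stood at 1182, 1897 and 1264 normalized counts in the vehicle tumors, at 1330, 1086 and 1157 in the ADU-S100 tumors, at 333, 1237 and 1472 in the olaparib tumors, and at 1792, 1524 and 1859 in the combination tumors. The combination tumors were all higher than every ADU-S100 and every olaparib tumor but overlapped with vehicle tumor 1529, and olaparib tumor 1510 lay far below all others. The group means were 1448 ± 391 for vehicle, 1191 ± 125 for ADU-S100, 1014 ± 601 for olaparib and 1725 ± 177 for the combination (SD, n = 3). The combination differed from olaparib by 1.02 ± 0.52 on the log2 scale (SE; limma adjusted p = 0.594) and by 0.35 without tumor 1510. From ADU-S100 it differed by 0.53 ± 0.52 (limma adjusted p = 0.693). From vehicle it differed by 0.28 ± 0.52 (limma adjusted p = 0.989), by 0.07 with a common median, 0.02 under quantile normalization and -0.07 with edgeR and TMM. The interaction of the 2 drugs was 1.27 ± 0.74 (limma adjusted p = 0.439), and the adjusted p reached its lowest value for any member under any setting, 0.114, for Csf1 in the combination versus olaparib without olaparib tumor 1521.

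Csf1r, the receptor tyrosine kinase of monocytes and macrophages, was almost the same in the 3 combination tumors, at 1171, 1164 and 1213 normalized counts. It stood at 561, 1912 and 1388 in the vehicle tumors, at 1675, 1283 and 839 in the ADU-S100 tumors, and at 947, 1446 and 808 in the olaparib tumors. The combination tumors thus lay inside the range of every other group. The difference from vehicle was 0.05 ± 0.49 on the log2 scale (limma adjusted p = 0.989), and it turned to -0.16 when all tumors were given a common median and to -0.46 without vehicle tumor 1269. Between the tumors whose numbers begin with 12 it was 1.05, and between those whose numbers begin with 15 it was -0.42. Il34, the gene of the other CSF1 receptor ligand, lay between 143 and 377 normalized counts in 11 tumors and at 1368 in olaparib tumor 1510, the one with the lowest Csf1.

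Cd68, a lysosomal glycoprotein used to stain macrophages, varied less than any other member in the deposited values, and less than any but Csf1r once all tumors had been given a common median. It stood at 401, 673 and 664 normalized counts in the vehicle tumors, at 1060, 837 and 618 in the ADU-S100 tumors, at 454, 671 and 674 in the olaparib tumors, and at 856, 452 and 684 in the combination tumors. Every group overlapped with every other, and the highest value of the 12 was 2.64 times the lowest. The ADU-S100 tumors differed from vehicle by 0.54 ± 0.41 on the log2 scale (limma adjusted p = 0.809), close to the 0.44 by which the median gene of the panel differed, and by -0.01 with the edgeR test under TMM scaling.

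Msr1 and Marco encode class A scavenger receptors, which bind modified lipoproteins and microbial surfaces. Msr1 stood at 144, 391 and 558 normalized counts in the vehicle tumors, at 669, 576 and 298 in the ADU-S100 tumors, at 212, 115 and 323 in the olaparib tumors, and at 421, 177 and 337 in the combination tumors. The ADU-S100 tumors tended to the top of the range and the olaparib tumors to its bottom, with overlap between all groups. The tumors given olaparib differed from those not given it by -0.69 ± 0.43 on the log2 scale (limma adjusted p = 0.752). The lowest Msr1 value rested on 11 recovered counts in tumor 1517.

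Marco was close to the floor of the assay. It stood at 8.87, 11.9 and 22.2 normalized counts in the vehicle tumors, at 31.3, 7.86 and 17.1 in the ADU-S100 tumors, at 35.1, 21.0 and 17.1 in the olaparib tumors, and at 8.91, 8.24 and 11.5 in the combination tumors. All 3 combination tumors were lower than all 3 olaparib tumors, while vehicle and ADU-S100 overlapped with both. The difference between combination and olaparib was -1.22 ± 0.52 on the log2 scale (limma adjusted p = 0.594), and -0.63 under quantile normalization. The olaparib value of tumor 1517 came from 2 recovered counts, for which an exact Poisson interval of 95% confidence ran from 2.54 to 75.7 normalized counts and so covered all combination values. Such intervals cover counting error only.

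**Figure D2:**
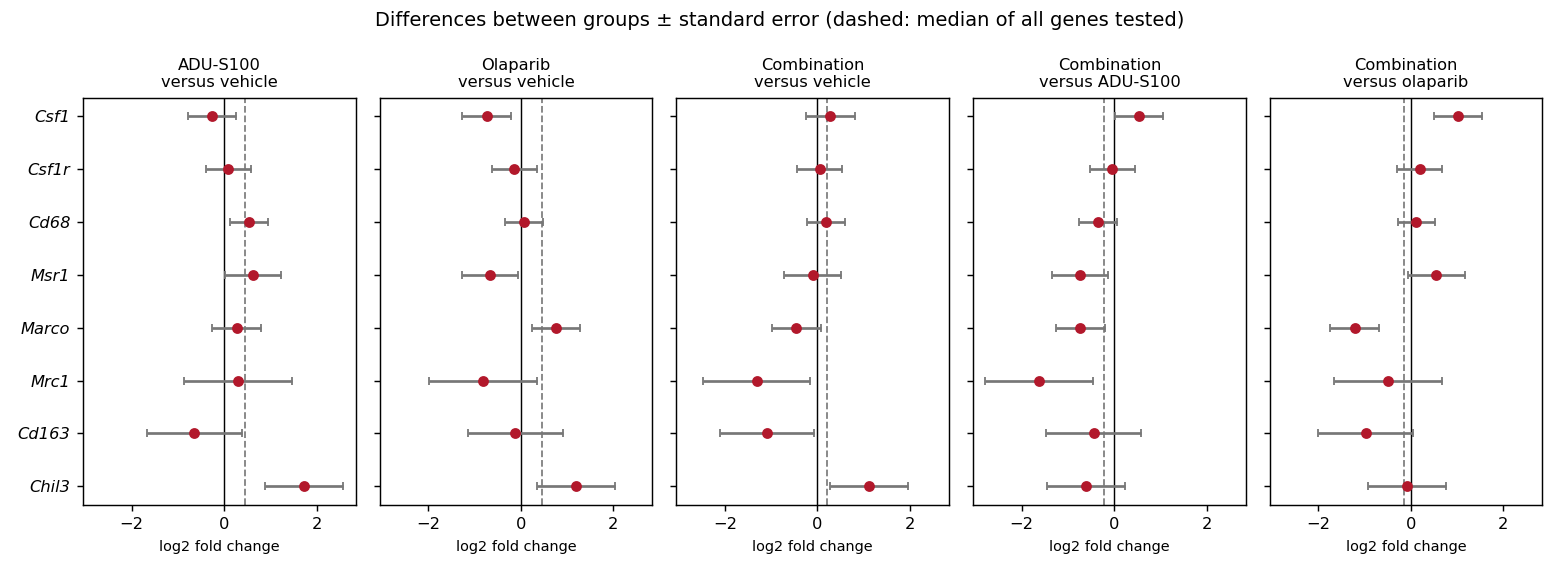
Log2 fold changes of the 8 genes in 5 comparisons, with bars of 1 standard error from the limma fit over 12 tumors and a dashed line at the median of the 689 genes tested. Mrc1, Cd163 and Chil3 have the widest bars, and no gene passes an adjusted p of 0.05.

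The 2 scavenger and lectin receptors of alternative activation, Mrc1 and Cd163, differed widely between tumors of the vehicle, ADU-S100 and olaparib groups and little between the combination tumors. Mrc1 encodes the mannose receptor CD206, an endocytic lectin, and Cd163 encodes the receptor that clears complexes of hemoglobin and haptoglobin. Mrc1 stood at 70.3, 1473 and 759 normalized counts in the vehicle tumors, at 1216, 334 and 367 in the ADU-S100 tumors, at 95.5, 1258 and 119 in the olaparib tumors, and at 137, 227 and 164 in the combination tumors. One tumor in each of the vehicle, ADU-S100 and olaparib groups (1529, 1506 and 1517) stood at 1216 or more, and no combination tumor exceeded 227. The combination tumors were lower than all ADU-S100 tumors but overlapped with the vehicle and olaparib groups, each of which held at least 1 tumor lower than all of them. The SD of log2 values was 2.30 in vehicle, 1.04 in ADU-S100, 2.05 in olaparib and 0.37 in the combination. A small spread in the combination was not particular to Mrc1 and Cd163. For Csf1r the SD was 0.03 there, against 0.43 to 0.92 in the other groups, but it was 0.47 for Cd68 and 0.65 for Msr1. The scaling factors of the combination tumors were also alike, at 0.81, 0.82 and 0.82, against 0.59 to 10.5 over all tumors.

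The difference in Mrc1 between combination and vehicle was -1.32 ± 1.16 on the log2 scale (limma adjusted p = 0.949), -0.43 without vehicle tumor 1529 and -2.61 without vehicle tumor 1269. Against ADU-S100 it was -1.62 ± 1.16 (limma adjusted p = 0.624), with -1.02 when ADU-S100 tumor 1506 was left out, -0.36 with a block for the series of tumor numbers and -0.28 with the scaling factor as a covariate. The tumor numbers begin with 12 in 1 vehicle and 2 combination tumors and with 15 in the other 9, and what the numbers mean is not given in the sources used here. Combination minus vehicle for Mrc1 was 1.31 in the series numbered 12 and -2.68 in the series numbered 15. The direction thus differed between the series, which was not tested.

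Cd163 stood at 70.9, 455 and 92.8 normalized counts in the vehicle tumors, at 179, 41.3 and 104 in the ADU-S100 tumors, at 83.8, 734 and 37.7 in the olaparib tumors, and at 64.8, 83.3 and 56.6 in the combination tumors. The same 3 tumors, 1517, 1529 and 1506, were highest, and the combination tumors lay within a narrow band at the low end, inside the range of the ADU-S100 and olaparib groups. The SD of log2 values was 1.44 in vehicle, 1.06 in ADU-S100, 2.20 in olaparib and 0.28 in the combination. The difference between combination and vehicle was -1.09 ± 1.02 on the log2 scale (limma adjusted p = 0.949), and -0.27 without vehicle tumor 1529. Within the series numbered 12 it was 0.05, and within the series numbered 15 it was -1.84.

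The 3 tumors that were high in Mrc1 and Cd163 were also the 3 highest in endothelial markers. The summed normalized count of the 4 endothelial markers measured (Pecam1, Cdh5, Kdr and Tek, of 5 listed) was 5881 in tumor 1529, 5116 in tumor 1506 and 16893 in tumor 1517, against 351 to 1489 in the other 9. By group it ranged from 868 to 5881 in vehicle, from 1234 to 5116 in ADU-S100, from 351 to 16893 in olaparib and from 1029 to 1331 in the combination, and none of the 4 markers was at 0 in any tumor. Cd36, a fatty acid and lipoprotein receptor of endothelium, fat cells and macrophages, stood at 3590, 3971 and 19104 normalized counts in those 3 tumors and between 53.6 and 589 in the others. Csf1r, a general gene, was also highest in these 3 tumors as deposited, at 1912, 1675 and 1446 normalized counts, with the next tumor at 1388. Cd68 stood at 673, 1060 and 671 in them, of which the value of tumor 1506 was the highest of all 12.

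The same 3 tumors also stood apart over the whole panel. Their median gene lay at 214, 301 and 304 normalized counts, against 96.2 to 165 in the other 9, and tumors 1517 and 1506 had the highest scaling factors, 10.5 and 2.85. Divided by the median gene of its tumor, the endothelial sum was still highest in 1517, 1529 and 1506, at 55.6, 27.5 and 17.0 against 2.34 to 13.5 in the others. Mrc1 then stood at 6.88 times the median gene in 1529, 4.14 in 1517 and 4.05 in 1506, but at 6.89 in vehicle tumor 1536. Cd163 stood at 2.41 in 1517 and 2.13 in 1529, and at 0.60 in 1506, below tumors 1536, 1513 and 1269. The place of tumor 1506 among the highest for Cd163 thus depended on the scaling. Fibroblast and matrix markers were lower in the combination in 7 of 7 cases against vehicle (median -1.14 on the log2 scale) and against ADU-S100 (-0.94), as Mrc1 was on average. They were also lower in 7 of 7 cases in olaparib versus vehicle (-1.40). In combination versus olaparib, where Mrc1 differed by -0.50, 4 of these markers were higher and 3 lower (0.17). Their summed normalized count ranged from 18395 to 94232 in vehicle, from 36733 to 60604 in ADU-S100, from 7209 to 30935 in olaparib and from 15526 to 30038 in the combination, and none was at 0. Divided by the median gene, that sum was highest in tumors 1536 and 1529, at 520 and 440, the same tumors that then led in Mrc1. The part of endothelium, fibroblasts or scaling in the Mrc1 and Cd163 values was not tested.

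**Figure D3:**
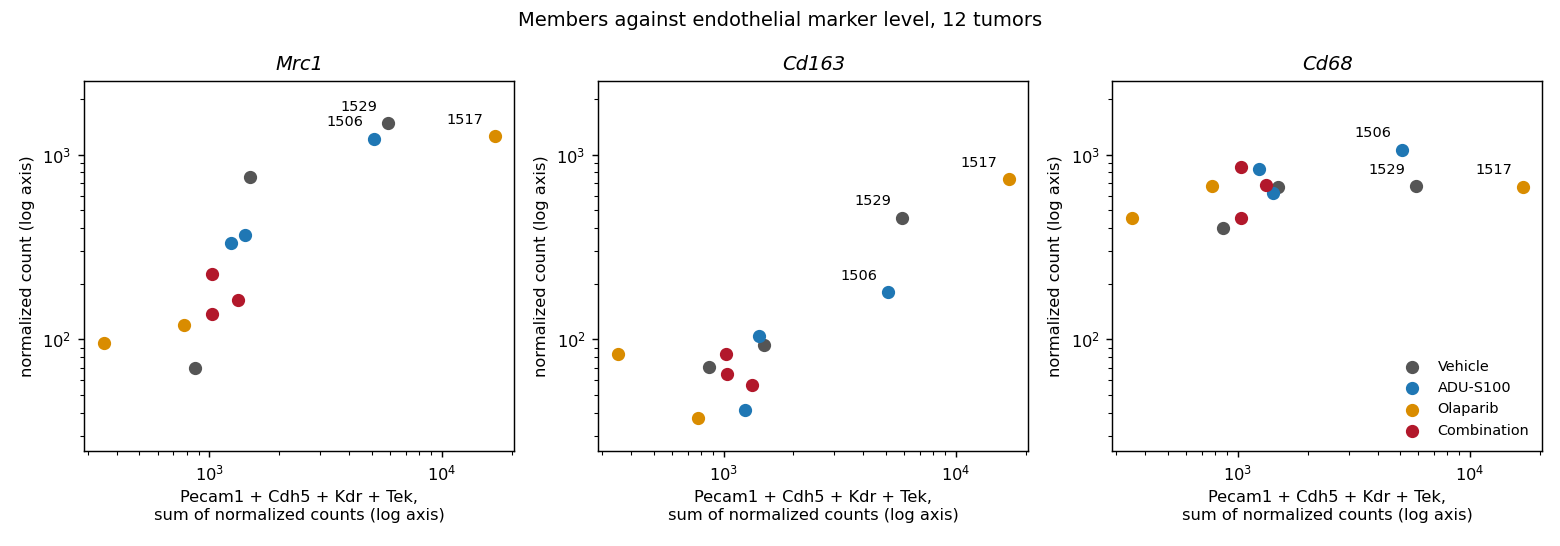
Normalized counts of Mrc1, Cd163 and Cd68 against the sum of 4 endothelial markers in 12 tumors, both on log axes, colored by treatment. Tumors 1529, 1506 and 1517 lie to the right in every panel and at the top for Mrc1 and Cd163, whereas Cd68 spans a narrow range across the whole axis.

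The promoters of Mrc1 and Cd163, the members with the widest spread as deposited, and of Cd68, the one with the narrowest, are shown for their differing letters. Each covers 250 bases before to 50 after the annotated start in RefSeq on GRCm38.p6, read on the gene's own strand, and such windows were at hand for 6 of 8 members. Capitals mark matches on either strand to GAGGAA, the core recognized by the myeloid factor PU.1, or to TGANTCA, the AP-1 motif. The 3 windows are Mrc1 at chr2:14229164-14229463 (+), Cd163 at chr6:124304401-124304700 (+) and Cd68 at chr11:69666121-69666420 (-).
Mrc1: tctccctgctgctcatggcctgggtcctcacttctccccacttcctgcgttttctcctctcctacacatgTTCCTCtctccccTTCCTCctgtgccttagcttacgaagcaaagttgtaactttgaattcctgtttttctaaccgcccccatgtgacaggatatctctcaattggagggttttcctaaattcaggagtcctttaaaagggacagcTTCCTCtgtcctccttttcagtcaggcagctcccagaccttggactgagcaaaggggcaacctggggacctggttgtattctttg
Cd163: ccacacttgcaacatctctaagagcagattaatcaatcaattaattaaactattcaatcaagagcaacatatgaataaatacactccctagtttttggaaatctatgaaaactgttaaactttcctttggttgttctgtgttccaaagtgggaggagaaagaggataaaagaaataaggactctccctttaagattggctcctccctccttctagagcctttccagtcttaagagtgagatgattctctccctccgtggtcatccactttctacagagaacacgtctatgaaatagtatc
Cd68: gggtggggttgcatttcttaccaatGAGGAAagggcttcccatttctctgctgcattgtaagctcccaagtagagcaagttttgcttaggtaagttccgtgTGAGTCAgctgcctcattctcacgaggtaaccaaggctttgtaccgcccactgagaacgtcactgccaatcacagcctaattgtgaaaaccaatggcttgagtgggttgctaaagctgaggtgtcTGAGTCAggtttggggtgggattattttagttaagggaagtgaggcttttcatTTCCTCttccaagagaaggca

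Mrc1 held 3 matches to GAGGAA, Cd68 held 2, and Cd163 held 0, against a share of 28.3% of 32851 windows of this length with at least 1. Cd68 also held 2 matches to TGANTCA, found in 7.81% of windows, and Mrc1 and Cd163 held 0. TTCNNNNGAA, the spacing preferred by STAT6, was in none of the 3 and in 6.95% of windows. No match overlapped another. A match describes letters only, and enhancers that lie farther away are outside these windows.

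Chil3, a secreted lectin also called Ym1, was low and uneven. It stood at 10.2, 40.1 and 13.2 normalized counts in the vehicle tumors, at 179, 78.6 and 15.7 in the ADU-S100 tumors, at 42.9, 83.8 and 20.04 in the olaparib tumors, and at 51.0, 46.2 and 26.2 in the combination tumors. Tumors 1269 and 1536 of the vehicle group were the 2 lowest, but vehicle tumor 1529 overlapped with all treated groups. The differences from vehicle were 1.73 ± 0.85 for ADU-S100 (limma adjusted p = 0.809), 1.19 ± 0.85 for olaparib (limma adjusted p = 0.623) and 1.12 ± 0.85 for the combination (limma adjusted p = 0.887), the last being 2.14 within the series numbered 12 and 0.17 within that numbered 15. The first of these was 0.96 without ADU-S100 tumor 1506, 2.68 without ADU-S100 tumor 1513 and 0.90 with the scaling factor as a covariate. Neutrophils, which also make Chil3, were represented by 7 of 10 markers, whose summed normalized count ranged from 1069 to 2226 in vehicle, from 1952 to 7776 in ADU-S100, from 723 to 3411 in olaparib and from 1605 to 1797 in the combination. That sum was mostly S100a8, which made up 7425 of the 7776 in ADU-S100 tumor 1512. Gene by gene, 7 of 7 of these markers were higher than in vehicle in ADU-S100 (median 1.17 on the log2 scale), 6 of 7 in olaparib (0.97) and 7 of 7 in the combination (0.97), against medians of 0.44, 0.45 and 0.21 over all genes. The size of these medians depended on single tumors. It was 0.71 in ADU-S100 without tumor 1512 (all genes 0.51) and 0.63 in olaparib without vehicle tumor 1269 (0.33). In the combination it was 0.43 without tumor 1270 (0.23). No marker of that list was at 0, but Elane stood at 4.09 in vehicle tumor 1269 and 31.4 in olaparib tumor 1517. The level of the lowest genes was 4.77 and 31.4 in these tumors. Camp, Elane and Mpo reached 20 normalized counts in no vehicle tumor. The part of neutrophils in the Chil3 values was not tested.

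The balance of alternative activation against general macrophage genes did not separate the treatments, although the size of its differences depended on the genes and tumors included. For each tumor it was taken as the mean log2(normalized count + 1) of Mrc1, Cd163 and Chil3 minus that of Csf1, Csf1r, Cd68, Msr1 and Marco, from which a scaling factor common to the tumor largely drops out. Probes differ in efficiency, so only differences between tumors can be read. The values were -2.42, -0.46 and -2.11 in the vehicle tumors, -0.70, -1.79 and -1.88 in the ADU-S100 tumors, -1.85, 0.45 and -2.89 in the olaparib tumors, and -2.27, -1.46 and -2.52 in the combination tumors. In each group 1 tumor stood above the other 2, and the olaparib group held both the highest and the lowest of all 12.

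The group means of this balance were -1.66 ± 1.06 for vehicle, -1.45 ± 0.66 for ADU-S100, -1.43 ± 1.71 for olaparib and -2.08 ± 0.56 for the combination (SD, n = 3). The combination thus differed from vehicle by -0.42, from ADU-S100 by -0.63 and from olaparib by -0.65, all less than the pooled SD of 1.09 between tumors of a group. Without Chil3, Marco and Msr1, the members with under 20 recovered counts in some tumor, these differences were -1.375, -1.08 and -1.18, the first larger than the pooled SD of 1.21 of that balance. The difference from vehicle was 0.18 without vehicle tumor 1529. The difference from ADU-S100 was -0.25 without ADU-S100 tumor 1506, and that from olaparib was 0.29 without olaparib tumor 1517 and -1.38 without olaparib tumor 1521. The tumors 1529, 1506 and 1517, high in Mrc1, Cd163 and endothelial markers, were the 3 highest in this balance too. Mrc1 minus Cd68, one gene of each set, was -2.50, 1.13 and 0.19 on the log2 scale in the vehicle tumors, 0.20, -1.32 and -0.75 in the ADU-S100 tumors, -2.24, 0.91 and -2.49 in the olaparib tumors, and -2.64, -0.99 and -2.05 in the combination tumors. The combination tumors overlapped with every other group. Mrc1 minus Csf1r was -2.98, -0.38 and -0.87 in the vehicle tumors, -0.46, -1.94 and -1.19 in the ADU-S100 tumors, -3.30, -0.20 and -2.75 in the olaparib tumors, and -3.09, -2.36 and -2.88 in the combination tumors. By this pair the combination tumors lay below all ADU-S100 tumors and overlapped with the vehicle and olaparib groups. Both pairs were chosen after their values were seen, and their differences were not tested.

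**Figure D4:**
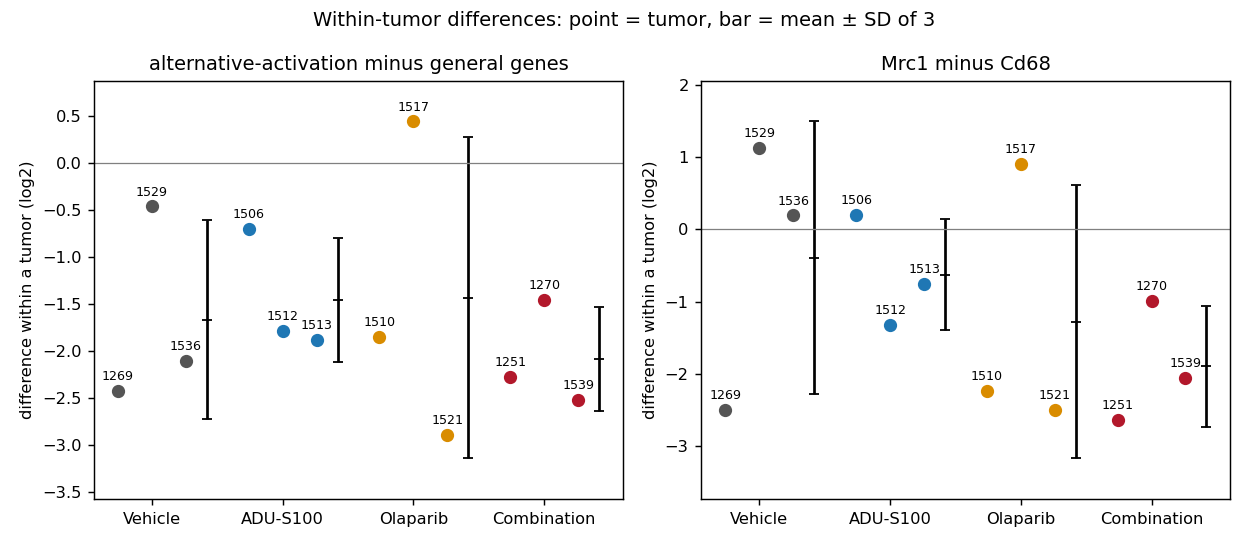
Within-tumor differences on the log2 scale by treatment group, for alternative-activation minus general macrophage genes (left) and for Mrc1 minus Cd68 (right), with a labelled point for each of 12 tumors and a bar at the mean ± SD of 3. The groups overlap in both panels, and olaparib tumor 1517 stands highest on the left.

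The differences of the members have to be read against a shift of the whole panel. The median gene differed by 0.21 on the log2 scale between combination and vehicle, by 0.44 between ADU-S100 and vehicle, by 0.45 between olaparib and vehicle, by -0.22 between combination and ADU-S100, and by -0.15 between combination and olaparib. The median of the 8 members differed by -0.03, 0.29, -0.13, -0.53 and 0.02 in the same order. In ADU-S100 versus vehicle, 6 of 8 members were higher as deposited and 3 of 8 once all tumors had been given a common median, and in combination versus vehicle the numbers were 4 and 2. Of 40 pairwise differences of the members, 13 changed sign under same-median, quantile or TMM scaling, 5 of them in ADU-S100 versus vehicle, and none of these 13 exceeded 0.76 in size.

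Ranked by spread of the deposited values over the 12 tumors, the alternative-activation genes stood above the general ones. The SD of log2 values put Mrc1 at the percentile 94.3 of the 689 genes, Cd163 at 87.5 and Chil3 at 81.3, with a highest value 21.0, 19.5 and 17.5 times the lowest. Msr1 stood at 47.0, Marco at 37.7 and Csf1 at 33.1. Csf1r and Cd68 stood at 17.1 and 11.5, with ratios of 3.41 and 2.64. Once all tumors had been given a common median, Mrc1 stayed highest, at the percentile 91.6, but Msr1 at 80.3 passed Cd163 at 76.2, Chil3 at 63.6 was level with Csf1 at 63.1, and Csf1r at 9.43 fell below Cd68 at 19.7. Genes near the detection limit gain spread from counting error, which bears on Chil3 and Marco.

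Across the 12 tumors, the members did not all vary together once the level of each tumor was taken out. Over 28 pairs of members, Pearson's r of log2 values was above 0 in 25, and after each tumor's median was subtracted it was above 0 in 14. The tumors share treatment groups and scaling factors, so these values are descriptions. The closest pairs after centring were Cd68 with Msr1 (r = 0.91) and Csf1r with Msr1 (0.77), both of general genes. Mrc1 and Cd163 reached 0.62, whereas Cd163 stood at -0.63 with Cd68 and at -0.56 with Msr1.

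For each member, the 3 reported genes with the highest Pearson's r of log2 values over the 12 tumors were taken as the most alike. Cd163 was closest to Thbd (r = 0.95), Vwf (0.94) and Tek (0.94), which encode thrombomodulin, von Willebrand factor and the angiopoietin receptor of endothelium. Mrc1 was closest to Cmah (0.97), Tlr8 (0.96) and Lrp1 (0.96). Cd68 was closest to Slc11a1, a phagosome metal transporter (0.89), Ccl12 (0.88) and Fcer1g, the Fc receptor gamma chain (0.86). Csf1r was closest to Tlr8 (0.91), the monocyte chemokine receptor Ccr2 (0.90) and the integrin Itgb2 (0.89). Msr1 was closest to Ccl2 (0.91), Cx3cr1 (0.89) and Fcgr2b (0.80), and Chil3 to Txk (0.91), Mefv (0.89) and Pou2f2 (0.88).

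These values were lower for most pairs without the 2 tumors farthest from the member's median. For Cd163 they were 0.75, 0.78 and 0.80 without tumors 1517 and 1529, and for Mrc1 they were 0.96, 0.95 and 0.95 without the same tumors. Csf1 was closest to Ifnar2 (r = 0.88), Emr1 (0.87) and Atf1 (0.84), values that fell to 0.48, 0.51 and 0.43 without tumors 1510 and 1529, the pair farthest from the median. Marco reached 0.69 with Lamp3, 0.68 with Tnfrsf10b and 0.66 with Nfatc1, and 0.56, 0.49 and 0.47 without tumors 1510 and 1506.

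Genes of the same pathways outside the members were counted in lists, and limma called 0 genes of these lists at an adjusted p below 0.05 in any comparison. Of 20 other macrophage and monocyte genes measured, 11 were higher and 9 lower in combination than in vehicle, with a median difference of 0.06 on the log2 scale against 0.21 for all genes. Without vehicle tumor 1529, 19 of 20 were higher (median 0.56, against 0.43), and without vehicle tumor 1269, 8 of 20 were (-0.30, against 0.16). Of the 20, 15 were higher in ADU-S100 than in vehicle (0.35, against 0.44) and 9 in olaparib than in vehicle (-0.13, against 0.45). In the combination 7 were higher than in ADU-S100 (-0.16, against -0.22) and 15 than in olaparib (0.37, against -0.15). With ADU-S100 given versus not given, 19 were higher (0.33, against 0.14). Cybb, a subunit of the phagocyte NADPH oxidase, stood at 945, 904 and 917 normalized counts in the combination and between 241 and 704 in the other 9 tumors, a difference from vehicle of 1.20 ± 0.46 (limma adjusted p = 0.472). Cd14 also passed an unadjusted p against vehicle (0.91 ± 0.39, limma adjusted p = 0.553). Ctss, a lysosomal protease of antigen-presenting cells, stood at 4528, 3150 and 3929 in the combination and at 1019, 555 and 2556 in olaparib, a difference of 1.76 ± 0.55 (limma adjusted p = 0.594). ADU-S100 tumor 1506, at 3278, lay above combination tumor 1270. Trem2, a lipid receptor of tumor macrophages, stood at 187, 150 and 167 in the combination and at 1119, 485 and 264 in ADU-S100, a difference of -1.64 ± 0.69 (limma adjusted p = 0.492). The vehicle tumors, at 106, 517 and 333, spanned the combination values.

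Classical activation genes stood higher in the combination than in vehicle in 14 of 16 cases, with a median of 0.82 on the log2 scale, against 65.3% of all genes higher and a median of 0.21. They were also higher than in vehicle in 15 of 16 cases in ADU-S100 (median 0.77, against 0.44 for all genes) and in 16 of 16 in olaparib (0.70, against 0.45). The combination stood higher than ADU-S100 in 12 of 16 (median 0.35, against -0.22 for all genes) and higher than olaparib in 11 of 16 (0.41, against -0.15), but in 8 of 16 without ADU-S100 tumor 1513 (-0.02, against -0.33 for all genes) and in 8 of 16 without olaparib tumor 1521 (0.08, against -0.53). The list's median thus stayed above that of all genes in both cases. The 4 groups were compared through these counts only, and the list's differences were not tested. In the combination 6 of 16 passed an unadjusted p of 0.05 (Cxcl9, Cxcl10, Cxcl11, Fpr2, Il12b and Tnf), where 7.69% of all genes did, against 2 in ADU-S100 versus vehicle, where 4.79% did, and 4 in olaparib versus vehicle, where 7.26% did. With 1 tumor left out these counts ran from 5 to 6, from 0 to 5 and from 0 to 6. The list was chosen with earlier results of these data known, so the counts are no test of it. Cxcl9, a chemokine induced by interferon gamma, stood at 80.5, 81.8 and 26.3 normalized counts in vehicle and at 244, 713 and 707 in the combination, a difference of 3.13 ± 0.84 (limma adjusted p = 0.278). Il12b, a subunit of interleukin 12, stood at 19.1, 23.8 and 13.2 in vehicle and at 116, 37.9 and 63.1 in the combination (1.79 ± 0.53, limma adjusted p = 0.278). The combination tumors lay above all vehicle tumors for both genes, a separation found in 20% of all genes. T cell markers were also higher in the combination than in vehicle in 6 of 6 cases (median 1.52), and the summed normalized count of 7 such markers ranged from 88.7 to 207 in vehicle, from 157 to 362 in ADU-S100, from 127 to 534 in olaparib and from 313 to 498 in the combination. None of the 7 was at 0, but Cd2 stood at 2.73 and 2.77 in vehicle tumors 1269 and 1536, under the level of the lowest genes, 4.77 and 4.85. Cd2 did not pass the filter and is not among the 6 counted. Of these 6, Cd3e and Cd8a reached 20 normalized counts in no vehicle tumor. The part of T cells was not tested. The classical activation genes are also made by dendritic cells and other cells, so their source in these tumors was not measured.

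Inputs and accompaniments of alternative activation stood higher in 9 and lower in 9 of 18 cases in combination versus vehicle, with a median of -0.01. Without vehicle tumor 1529, 14 of 17 were higher (0.30, against 0.43 for all genes). With all tumors, the list was higher in 15 of 18 in ADU-S100 versus vehicle (median 0.66, against 0.44 for all genes) and in 14 of 18 in olaparib versus vehicle (0.65, against 0.45), and lower in 15 of 18 in combination versus olaparib (-0.42, against -0.15). Both olaparib values rested on tumor 1517, without which 8 of 16 genes kept by the filter were higher in olaparib than in vehicle (0.09, against 0.08) and 7 of 16 were lower in combination than in olaparib (0.01, against 0.24). Without ADU-S100 tumor 1506, the ADU-S100 value was 12 of 16 higher (0.21, against 0.14). Il10 and Il13 reached 20 normalized counts only in ADU-S100 and olaparib tumors, and so passed the filter through these groups. They had 4 to 14 and 7 to 19 recovered counts. The level of the lowest genes was 9.27 to 17.1 normalized counts in ADU-S100 and 4.12 to 31.4 in olaparib, against 4.77 to 6.69 in vehicle. Its part in the counts of this list was not tested. Ccl22, a chemokine of alternatively activated macrophages and dendritic cells, was the single gene of the list that passed an unadjusted p in combination versus vehicle, at 18.4, 34.2 and 20.1 normalized counts in vehicle and 64.8, 70.9 and 90.2 in the combination (1.63 ± 0.49, limma adjusted p = 0.278). Of 7 genes of the CSF receptor axis, members included, 5 were higher and 2 lower in combination versus vehicle, where 65.3% of all genes were higher. Csf3r, the granulocyte CSF receptor of neutrophils, passed an unadjusted p (1.23 ± 0.54, limma adjusted p = 0.608), as 7.69% of all genes did. Without combination tumor 1251 or 1539, 3 were higher and 4 lower. No gene of this axis passed without combination tumor 1251 or 1270 or vehicle tumor 1269.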

How the data were processed

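The table of 750 genes holds 12 tumors, 3 per treatment, which were assigned to groups by the sample labels. The members and gene lists were chosen with earlier results of these data known. Of 9 genes taken by the rule, 8 are described, and the remaining member and 2 genes of other lists are not reported here. The balance of the sets was computed over the genes described, a choice made after the data were seen. The deposited signal is linear: nCounter counts that the authors passed through nSolver 4, which checked quality, corrected for background, and scaled each tumor by its positive controls and housekeeping genes, neither of which were analysed here. Whole counts were recovered from the step of which a tumor's low values are multiples, and at least 99.87% of values per tumor came out whole within 0.01 of a count. Of the symbols, 736 were current in the mouse RefSeq table, 8 were older and 6 were unmatched.

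Tests used log2(normalized count + 1) and genes with at least 20 in at least 3 tumors. On this scale the change of low genes is understated. Limma 3.58.1 (R 4.3.3) was fitted to the 12 tumors together with a mean for every group, and with Benjamini-Hochberg adjustment over 689 genes and a threshold of 0.05, after a test of the scripts on simulated data. Nothing beyond the tumor numbers says how the tumors relate, so p-values measure the spread between these tumors. The level of the lowest genes was the median recovered count over those 30 genes whose mean was lowest. The genes named beside the 8 members were the 3 with the highest Pearson r per member and some of the list genes that passed an unadjusted p of 0.05. These list genes were picked after their values were seen, and others that passed are not named. Il34, Emr1, Cd36, Il13 and the cell type markers come from the lists and were likewise picked for the text after their values were seen. Alternatives were a filter at 50 or none, a pseudocount of 10, same-median and quantile scaling, fits restricted to a pair of groups, an intensity trend, the methods' t-test, a block for the series of tumor numbers, the scaling factor as a covariate, background subtraction, the edgeR 4.0.16 quasi-likelihood test on recovered counts with the authors' factors or TMM, and leaving out each tumor. Figures were drawn with matplotlib 3.10.9.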

Additional observations from a re-analysis of the deposited data

How the results depend on the processing

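No member was called in the 5 pairwise comparisons under 25 alternative settings or in the 3 factorial contrasts under 23, as a fit on 2 groups and the methods' t-test were not run for these, and the lowest adjusted p of a member was 0.114. Of 222 alternative values of 9 member differences, 216 kept their direction and 6 turned. These 9 were picked from all member differences and do not stand for the rest. Of all 40 pairwise differences, 13 changed sign under 3 other scalings alone. For Csf1r, combination versus vehicle turned to -0.16 with same-median scaling, -0.25 with quantile normalization, -0.12 with edgeR and the authors' factors, and -0.39 with edgeR and TMM, and ran from -0.46 (without vehicle tumor 1269) to 0.42 (without vehicle tumor 1529) when 1 tumor was left out. For Cd68, ADU-S100 versus vehicle turned to -0.011 with edgeR and TMM. The balance of alternative and general genes moved by less than the pooled SD of 1.09, but its sign was not fixed. When 1 tumor was left out it ran from -0.80 to 0.18 in combination versus vehicle, -0.17 to 0.81 in ADU-S100 versus vehicle, -0.71 to 0.96 in olaparib versus vehicle, -0.94 to -0.25 in combination versus ADU-S100 and -1.38 to 0.29 in combination versus olaparib. Without the members under 20 recovered counts it was -1.375, -0.30, -0.19, -1.08 and -1.18.

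Over all genes, limma called 0, with 53 at an unadjusted p under 0.05 in combination versus vehicle. That comparison had 2 calls in a fit on the 2 groups alone, 3 with the methods' t-test and 4 with the scaling factor as a covariate. Combination versus ADU-S100 had 1 with a pseudocount of 10, a filter at 50, same-median scaling, quantile normalization or an intensity trend, and 0 to 1 when 1 tumor was left out. Leaving out tumors gave 0 to 55 calls in olaparib versus vehicle, 0 to 54 in combination versus olaparib and 0 to 86 for the interaction, each time the most without olaparib tumor 1521, and none was a member. The cause was not tested. Depth limits Marco most, with 2 to 32 recovered counts per tumor, and then Chil3, with 8 to 63. No paired analysis was possible because the groups share no tumor numbers.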
